A study of Mus musculus with 6 samples.

Results

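The unfolded protein response and the chaperones of the endoplasmic reticulum (ER) were examined in 6 mouse mammary cell lines, 3 labelled EIC and 3 labelled 16IC. The set held 34 genes, chosen by name from the 23449 genes of the deposited count table. It was divided by role into 15 chaperones and folding enzymes, 8 genes of ER-associated degradation (ERAD) and of the translocon, 5 sensors and transcription factors, and 6 targets of ATF4. Of the 34 genes, 33 had enough counts to be tested, and Derl3 did not.

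All 6 lines were female, of the FVB/N strain and of mammary origin, and all were grown with doxycycline at 10 ug/mL. The genotype is given as EIC/WT for the EIC lines (EIC 1, EIC 2 and EIC 3) and as 16IC/WT for the 16IC lines (16IC 1, 16IC 2 and 16IC 3). Values are given in that order. The title of EIC 2 carries the letters NT where those of the other 5 lines carry a number, and the labels do not explain them. The title of the series names HER2∆16, a splice form of the receptor HER2 that lacks an exon. On background knowledge of the study, EIC lines express wild-type ErbB2 (the mouse name of HER2) under doxycycline, and 16IC lines express the splice form. No group without doxycycline was analysed here, so the receptor form and anything else that differs by line cannot be told apart. The labels do not say which animals or clones the lines came from, and p-values therefore measure only the spread between these samples.

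The ER folds proteins that enter the secretory pathway. When unfolded proteins build up there, the sensors IRE1 (gene Ern1), PERK (gene Eif2ak3) and ATF6 signal to the nucleus. IRE1 splices Xbp1 messenger RNA and ATF6 is cut to a free transcription factor, and together these raise chaperones and ERAD genes. PERK phosphorylates the initiation factor eIF2, which lowers protein synthesis and raises translation of ATF4. Other kinases of eIF2, such as the amino acid sensor encoded by Eif2ak4, also act through ATF4, so its targets are not specific to the ER. Gene counts do not show Xbp1 splicing, ATF6 cleavage or the translation of Atf4.

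Some promoters of the genes carry letters of elements known from ATF6 or from ATF4 targets, and the matched stretches are shown for that reason. In the RefSeq windows (GRCm38.p6, 250 bases before to 50 after a start site) 29 of the 34 genes were matched by symbol. The ER stress response element (ERSE, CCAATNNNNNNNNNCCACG on either strand), which ATF6 binds together with the factor NF-Y, was found in 8 of these 29 genes. Over all 27025 genes with a window it was found in 37, or 0.137%. The 8 genes were 6 of 12 matched chaperones and 2 of 7 matched ERAD and translocon genes. No ATF4 target of 6 and no sensor or factor of 4 held it. Each stretch below is printed 5′ to 3′ in the direction of the element, with its strand, and capitals mark the fixed letters of the element.
Hspa5, chr2:34772005-34772063, + strand: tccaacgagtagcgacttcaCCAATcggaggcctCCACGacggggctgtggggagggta
Hsp90b1, chr10:86705618-86705676, - strand: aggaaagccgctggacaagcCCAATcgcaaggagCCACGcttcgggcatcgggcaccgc
Hsp90b1, chr10:86705513-86705571, + strand: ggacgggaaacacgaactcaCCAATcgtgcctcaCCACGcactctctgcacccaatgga
Pdia6, chr12:17266471-17266529, + strand: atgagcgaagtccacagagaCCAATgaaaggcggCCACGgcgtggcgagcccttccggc
Creld2, chr15:88819500-88819558, - strand: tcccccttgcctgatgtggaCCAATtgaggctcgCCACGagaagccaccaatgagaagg
Canx, chr11:50325780-50325838, - strand: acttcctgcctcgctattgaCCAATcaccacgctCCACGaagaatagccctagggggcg
Calr, chr8:84847055-84847113, + strand: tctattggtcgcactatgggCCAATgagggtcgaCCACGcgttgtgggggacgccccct
Syvn1, chr19:6046512-6046570, + strand: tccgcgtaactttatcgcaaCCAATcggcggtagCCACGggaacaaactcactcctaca
Derl3, chr10:75893222-75893280, - strand: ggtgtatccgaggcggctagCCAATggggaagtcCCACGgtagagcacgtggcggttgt

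The ATF4 element was searched as TTNCATCA on either strand, the C/EBP-ATF response element (CARE), which 4.51% of all genes with a window held. It was found in 3 of the 6 ATF4 targets (Asns, Chac1 and Trib3), in Herpud1, and in none of the 12 matched chaperones. The match in Trib3 lay after the RefSeq start site and is not printed. By the gene coordinates of the deposited count table, the printed stretches of Hspa5 and Asns lie inside the gene. Herpud1, whose product recruits the ERAD machinery, also held the element ERSE-II (ATTGG, any base, then CCACG), which 0.0444% of genes held, so that its window carried both kinds of element.
Chac1, chr2:119351029-119351076, + strand, CARE: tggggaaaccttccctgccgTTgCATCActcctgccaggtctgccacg
Asns, chr6:7693210-7693252, + strand, CARE: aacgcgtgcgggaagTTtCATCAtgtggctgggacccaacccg
Herpud1, chr8:94386297-94386344, + strand, CARE: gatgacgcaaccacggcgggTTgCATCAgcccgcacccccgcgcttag
Herpud1, chr8:94386357-94386407, + strand, ERSE-II: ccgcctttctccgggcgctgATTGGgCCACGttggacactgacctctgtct
ERSE-II was also matched in Dnajb11, after the start site. The letters of an XBP1-type element (TGACGTGG) were in 0.714% of all genes with a window and in none of the 29. A match is a description of the letters and not a measured site of binding.

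Library totals lay between 15621563 and 17468498 counts. Mitochondrial genes took 0.926 to 1.5% of the counts in EIC and 2.0 to 3.39% in 16IC, and the part of this difference in the results below was not tested. The 10 epithelial markers summed to 2951 to 3433 CPM (the count divided by the TMM-scaled library size, on the usual CPM scale) in EIC, to 9597 and 9649 CPM in 16IC 1 and 16IC 2, and to 2126 CPM in 16IC 3. Of 11 leukocyte markers 8 were measured and 6 of them stayed under 1 CPM in every line (summed level 14.7 to 47.8 CPM in EIC and 12.8 to 19.7 CPM in 16IC). The 5 endothelial markers summed to at most 4.16 CPM, and 6 measured fibroblast markers to 12.1 to 105 CPM in EIC and 11.4 to 35.4 CPM in 16IC. The 2 measured adipocyte markers summed to 22.2, 0.241 and 42.2 CPM in the EIC lines and to at most 1.88 CPM in 16IC. The part of these markers in the results was not tested.

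Chaperones of the ER were lower in 16IC than in EIC in most members, though few passed the test across all genes. All 15 had a negative log2 fold change of 16IC over EIC, with a median of -0.87, where 50.3% of the 13698 tested genes had one and the median was -0.00. In 11 of the 15, all 3 16IC lines lay below all 3 EIC lines, which held for 14.2% of tested genes. At an unadjusted p under 0.05 edgeR's quasi-likelihood test had 10 of 15 lower, against 10.1% of tested genes. After Benjamini-Hochberg adjustment over all tested genes it called 2, Creld2 and Hspa13, where it called 1.2% of genes as lower and 2.45% in either direction. EdgeR made no other call among the 33 tested genes, while DESeq2 called 13, all lower, with 12.4% of its genes called. In these bulk samples, fewer cells of a type and less RNA per cell cannot be told apart. The summed level of the 15 was 7812 ± 1024 CPM in EIC and 4792 ± 839 CPM in 16IC (SD, n = 3).

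Creld2 (ENSMUSG00000023272, chromosome 15, 88819646 to 88826683), a secreted and ER-resident folding factor, had 113, 104 and 86.3 CPM in the EIC lines and 42.0, 45.2 and 48.5 CPM in the 16IC lines. The groups were well apart, and the 16IC lines were close to each other. Creld2 fell by 1.16 on the log2 scale (SE 0.17, edgeR's adjusted p = 0.0390). Hspa13 (ENSMUSG00000032932, chromosome 16, 75745431 to 75767104), a member of the HSP70 family bound to microsomes, had 125, 142 and 129 CPM in EIC and 53.0, 66.6 and 65.6 CPM in 16IC. No 16IC line reached the lowest EIC line, and Hspa13 fell by 1.09 (SE 0.17, edgeR's adjusted p = 0.0390). Both calls were lost in edgeR (adjusted p = 0.0609 to 0.175) on leaving out any of EIC 1, EIC 2, EIC 3, 16IC 1 and 16IC 2, and held without 16IC 3 (adjusted p = 0.0180 and 0.0193).

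Hspa5 (ENSMUSG00000026864, chromosome 2, 34771970 to 34777547) encodes BiP, the main HSP70 chaperone of the ER lumen, which also holds the sensors inactive. It had 1969, 1475 and 1461 CPM in the EIC lines and 655, 684 and 865 CPM in the 16IC lines. All EIC lines were above all 16IC lines, with 16IC 3 the highest of its group. EdgeR fitted a log2 fold change of -1.15 (SE 0.25) and did not call it (adjusted p = 0.0695). Its partners showed values in the same direction. Hyou1, a nucleotide exchange factor of BiP, had 385, 447 and 311 CPM in EIC and 166, 161 and 217 CPM in 16IC (log2 fold change -1.07, edgeR's adjusted p = 0.0652). Sdf2l1, a cofactor of the ER J proteins, had 56.2, 73.4 and 48.7 CPM in EIC and 19.7, 14.4 and 34.2 CPM in 16IC (log2 fold change -1.39, edgeR's adjusted p = 0.0974). In both genes 16IC 3 was again the highest 16IC line without reaching an EIC line. Manf, a secreted factor that binds BiP, had 189.98, 216 and 123 CPM in EIC and 105, 78.6 and 77.3 CPM in 16IC. Its groups did not overlap, and the log2 fold change was -1.02 (edgeR's adjusted p = 0.0963).

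J proteins deliver clients to BiP and stimulate its ATPase, and the 3 in the set had log2 fold changes nearer to 0 than that of Hspa5. Dnajb11 had 159, 177 and 137 CPM in EIC and 120, 117 and 131 CPM in 16IC, groups that did not overlap (log2 fold change -0.36, edgeR's adjusted p = 0.257). Dnajb9, a J protein that also represses IRE1, had 76.6, 40.5 and 56.5 CPM in EIC and 24.0, 32.4 and 52.1 CPM in 16IC. Here 16IC 3 lay above EIC 2, and the log2 fold change of -0.68 was not called (edgeR's adjusted p = 0.331). Dnajc10, a J protein with thioredoxin domains, also overlapped between groups (log2 fold change -0.30, edgeR's adjusted p = 0.499).

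Hsp90b1, the HSP90 paralogue of the ER, had 1294, 1227 and 977 CPM in EIC and 595, 551 and 732 CPM in 16IC. The lowest EIC line was above the highest 16IC line, and the log2 fold change was -0.90 (edgeR's adjusted p = 0.0945). Among the disulfide isomerases, Pdia4 had 277, 345 and 249 CPM against 153, 154 and 170 CPM (log2 fold change -0.87, edgeR's adjusted p = 0.0679). Pdia6, which also acts on IRE1 and PERK, had 622, 449 and 584 CPM against 308, 267 and 346 CPM (log2 fold change -0.85, edgeR's adjusted p = 0.0917). For Pdia4 and Pdia6 the groups did not overlap.

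The lectin chaperone system, which folds glycoproteins, did not share the pattern of Hspa5 in full, and neither did the J proteins above. Canx, the membrane-bound lectin calnexin, had 878, 800 and 663 CPM in EIC and 542, 599 and 490 CPM in 16IC, apart by group (log2 fold change -0.52, edgeR's adjusted p = 0.208). Calr, its soluble relative calreticulin, had 841, 1090 and 624 CPM in EIC and 687, 512 and 1185 CPM in 16IC. The highest value of all 6 lines was that of 16IC 3, and the log2 fold change was -0.10 (SE 0.39, edgeR's adjusted p = 0.904). Pdia3, the isomerase that works with both lectins, had 1019, 1523 and 927 CPM in EIC and 754, 660 and 1028 CPM in 16IC. As with Calr, 16IC 3 was the highest 16IC line, and for Pdia3 it lay within the range of EIC (log2 fold change -0.51, edgeR's adjusted p = 0.373). Per kilobase of the gene length in the table, the mean level in EIC was 387 CPM per kilobase for Hspa5 and 368 for Pdia3, a difference within the spread of the lines. In 16IC it was 276 for Calr, 259 for Pdia3 and 174 for Hspa5. The mean of Calr in 16IC was above that of Pdia3 through 16IC 3 alone.

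**Figure D1:**
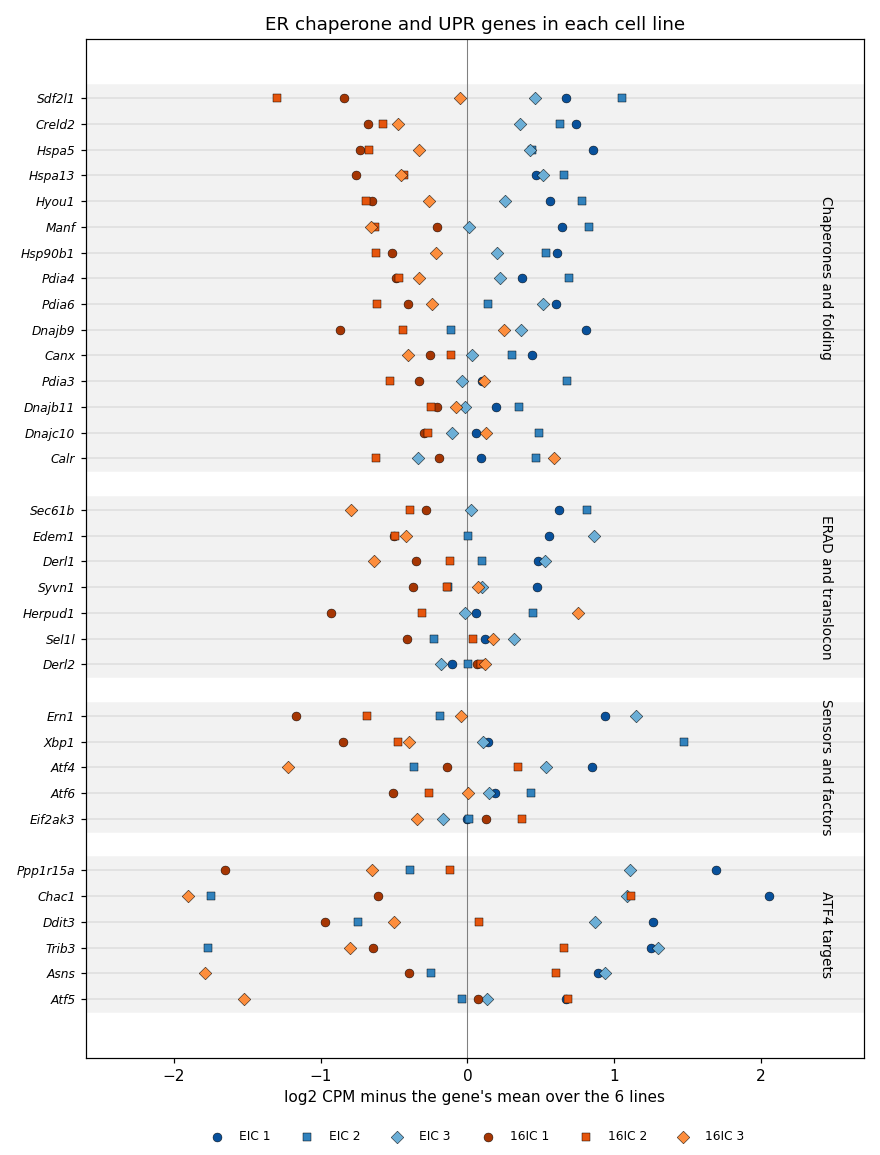
Level of the 33 tested genes in each of the 6 lines, as log2 CPM minus the gene's mean over the lines, grouped by role. EIC lines (blue) lie to the right of 16IC lines (orange) in 11 of 15 chaperones, while in the ATF4 targets EIC 2 lies to the left of the other EIC lines and 16IC 2 to the right of the other 16IC lines.

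ERAD and translocon genes were divided. Of 7 tested, 6 had a negative log2 fold change (median -0.30). EdgeR and limma-voom called 0 (2.45% and 2.1% of tested genes). In edgeR 3 were lower at an unadjusted p under 0.05 (10.1% of tested genes). DESeq2 called Edem1 and Sec61b of the 7 (12.4% of its genes). Edem1, which takes mannose-trimmed glycoproteins out of folding, had 203, 138 and 251 CPM in EIC and 97.6, 97.9 and 103 CPM in 16IC. Its 16IC lines were nearly equal and all below EIC (log2 fold change -0.99, edgeR's adjusted p = 0.0871), and without EIC 2 it was called (adjusted p = 0.0490). Derl1, a channel-forming derlin, had 273, 209 and 282 CPM against 153, 180 and 126 CPM (log2 fold change -0.74, edgeR's adjusted p = 0.118). Its paralogue Derl2 had 72.4, 78.1 and 68.5 CPM against 81.3, 83.1 and 84.6 CPM, with each 16IC line above each EIC line. Derl2 was the 1 member of the 34 with its groups apart in that direction (log2 fold change 0.18, edgeR's adjusted p = 0.492). Derl3, the third derlin, had 1 to 5 counts in the EIC libraries and 2 to 12 in the 16IC libraries.

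The ubiquitin ligase complex that carries out ERAD did not separate by group. Syvn1, the ligase HRD1, had 161, 105 and 124 CPM in EIC and 89.4, 105 and 121 CPM in 16IC (log2 fold change -0.30, edgeR's adjusted p = 0.468). Sel1l, its adaptor, had 285, 224 and 328 CPM against 197, 270 and 296 CPM (log2 fold change -0.13, edgeR's adjusted p = 0.784). Herpud1 had 90.3, 118 and 85.9 CPM against 45.5, 69.9 and 146 CPM, so that 16IC held both the lowest and the highest line (log2 fold change -0.17, edgeR's adjusted p = 0.850). Leaving out 16IC 3 gave Herpud1 a log2 fold change of -0.77. Sec61b, a subunit of the channel through which proteins enter the ER, had 70.6, 80.3 and 46.4 CPM in EIC and 37.6, 34.8 and 26.4 CPM in 16IC. Its groups were apart, with a log2 fold change of -1.0 (edgeR's adjusted p = 0.103).

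Of the 5 sensors and factors edgeR called 0 (2.45% of tested genes). Lower in 16IC at an unadjusted p under 0.05 were 3 (10.1% of tested genes). Of the 5, limma-voom also called 0 (2.1% of tested genes) and DESeq2 called Xbp1 (12.4% of its genes). Xbp1, the factor made active by IRE1 splicing, had 201, 508 and 196 CPM in the EIC lines and 101, 131 and 139 CPM in the 16IC lines. EIC 2 was more than the other EIC lines together, and all 16IC lines were below all EIC lines (log2 fold change -1.28, SE 0.42, edgeR's adjusted p = 0.145). Without EIC 2 the log2 fold change of Xbp1 was -0.69. Ern1, the IRE1 gene, went the other way within EIC, with 205, 94.4 and 238 CPM, and had 47.9, 66.8 and 104 CPM in 16IC. EIC 2 thus lay below 16IC 3 (log2 fold change -1.30, SE 0.44, edgeR's adjusted p = 0.152). Atf6 had 167, 197 and 162 CPM in EIC and 103, 122 and 146 CPM in 16IC, apart by group (log2 fold change -0.50, edgeR's adjusted p = 0.194).

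For Eif2ak3 and Atf4, genes of the PERK branch, the groups overlapped, as they did for Ern1. Of all tested genes, 31.4% had groups apart in either direction. Eif2ak3 had 57.8, 58.2 and 51.6 CPM in EIC and 63.2, 75.0 and 45.6 CPM in 16IC (log2 fold change 0.13, SE 0.22, edgeR's adjusted p = 0.764). The 16IC lines lay on both sides of EIC. Atf4 had 466, 200 and 374 CPM in the EIC lines and 234, 328 and 111 CPM in the 16IC lines (log2 fold change -0.63, SE 0.48, edgeR's adjusted p = 0.489). EIC 2 was the lowest EIC line, 16IC 2 was the highest 16IC line and 16IC 3 was the lowest of all. EIC 2 and 16IC 2 held these places in all 6 targets of ATF4, while 16IC 3 was the lowest of all in 3 of the 6.

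**Figure D2:**
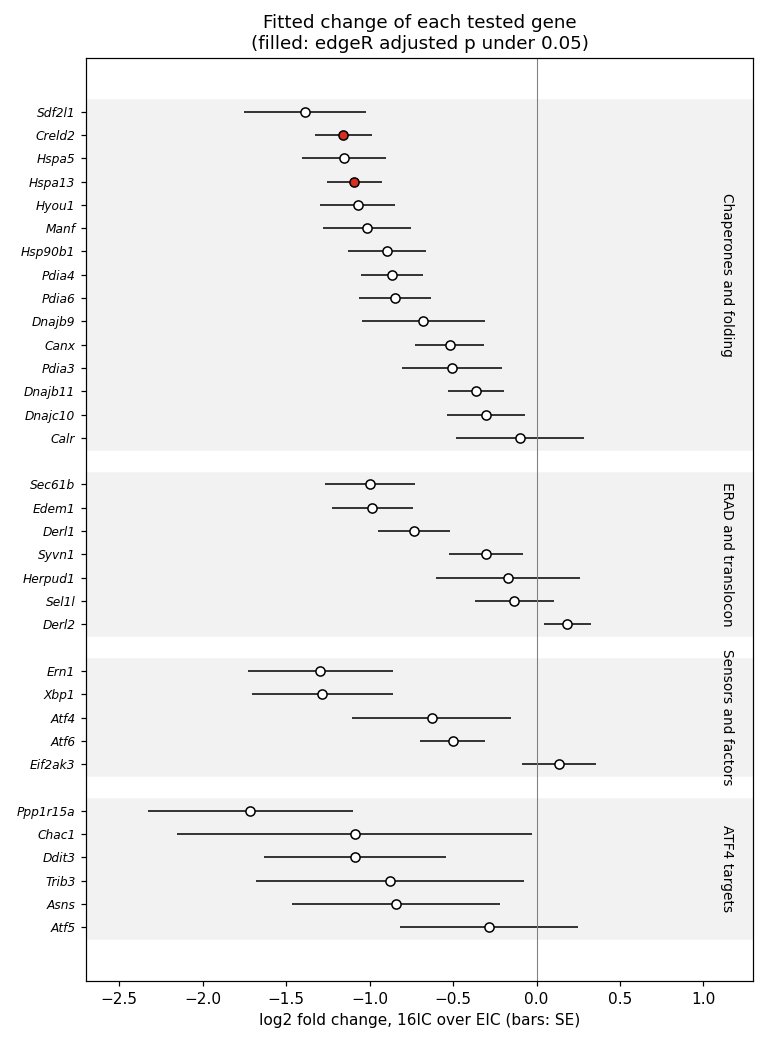
Fitted log2 fold change of 16IC over EIC for the 33 tested genes, with bars of 1 SE, by role. Creld2 and Hspa13 (filled) are the calls of edgeR at an adjusted p under 0.05, and the bars of the ATF4 targets (SE 0.54 to 1.06) are wider than those of most chaperones.

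ATF4 targets had log2 fold changes as negative as those of the chaperones, but their lines overlapped between groups. All 6 were negative, with a median of -0.98. None of the 6 had groups apart, where 14.2% of tested genes were lower in this way and 31.4% apart in either direction. EdgeR and limma-voom called 0 of 6, with 2.45% and 2.1% of tested genes called. In edgeR 1 was lower at an unadjusted p under 0.05 (10.1% of tested genes), and DESeq2 called Ppp1r15a alone (adjusted p = 0.0492, with 12.4% of its genes called). Shares of 1 in 6 are near those of all genes. Ppp1r15a, the phosphatase subunit that reverses eIF2 phosphorylation, had 97.0, 22.9 and 64.6 CPM in the EIC lines and 9.52, 27.6 and 19.1 CPM in the 16IC lines. EIC 2 lay below 16IC 2, and the fitted log2 fold change of -1.71 (SE 0.61) was not called by edgeR (adjusted p = 0.170). Ddit3, the stress factor CHOP, had 72.8, 18.0 and 55.4 CPM in EIC and 15.4, 31.9 and 21.4 CPM in 16IC. EIC 2 was below 16IC 2 and 16IC 3 (log2 fold change -1.09, SE 0.54, edgeR's adjusted p = 0.295).

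Trib3, a pseudokinase that restrains ATF4 and AKT, had 152, 18.8 and 157 CPM in EIC and 40.8, 101 and 36.6 CPM in 16IC. EIC 2 was the lowest of all 6 lines, 8.37-fold under the highest EIC line (log2 fold change -0.88, SE 0.80, edgeR's adjusted p = 0.571). Chac1, which degrades glutathione, had 89.1, 6.38 and 45.4 CPM in EIC and 14, 46.4 and 5.71 CPM in 16IC. The highest line was 14-fold over the lowest in EIC and 8.13-fold in 16IC, the widest range within EIC and within 16IC among the 33 tested genes (log2 fold change -1.09, SE 1.06, edgeR's adjusted p = 0.594). Single lines moved the log2 fold change of Chac1, to -0.26 without EIC 1 and to -2.25 without 16IC 2. Asns, asparagine synthetase, had 208, 94.6 and 216 CPM in EIC and 85.3, 171 and 32.6 CPM in 16IC (log2 fold change -0.84, SE 0.62, edgeR's adjusted p = 0.476). Leaving out 16IC 2 gave Asns a log2 fold change of -1.55 and Trib3 one of -1.50. Atf5, a factor regulated in translation like ATF4, had 226, 138 and 155 CPM in EIC and 149, 228 and 49.3 CPM in 16IC. Its 16IC 2 line was at the level of the highest EIC line (log2 fold change -0.29, SE 0.54, edgeR's adjusted p = 0.792).

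**Figure D3:**
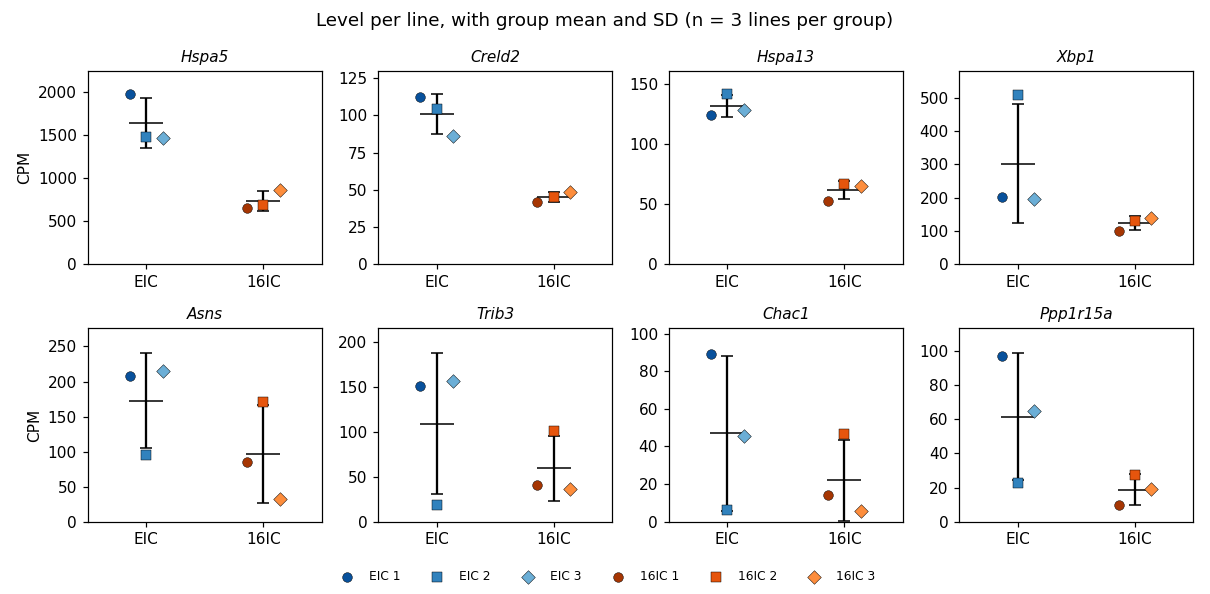
CPM in each line for 4 genes of the chaperone and XBP1 side (upper row) and 4 ATF4 targets (lower row), with group mean and SD over 3 lines and each axis starting at 0. The groups of Hspa5, Creld2, Hspa13 and Xbp1 are apart, while in Asns, Trib3, Chac1 and Ppp1r15a EIC 2 is low and 16IC 2 is high within their groups.

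Chaperones thus varied mainly between groups and ATF4 targets mainly between lines of a group. The median ratio of the highest to the lowest line within EIC was 1.38 for the chaperones, 4.14 for the ATF4 targets and 1.56 for all tested genes. Within 16IC it was 1.33, 3.76 and 1.64. These ratios are descriptions of 3 lines each and were not tested. Level by role was taken as the median over members of log2 CPM centred on each gene's mean over the 6 lines. For the chaperones it was 0.57, 0.53 and 0.22 in the EIC lines and -0.49, -0.58 and -0.24 in the 16IC lines. For the 6 ATF4 targets it was 1.26, -0.57 and 1.01 in the EIC lines and -0.63, 0.63 and -1.16 in the 16IC lines. The line EIC 2 was therefore high in chaperones and low in ATF4 targets, and 16IC 2 was the lowest in chaperones and above EIC 2 in ATF4 targets.

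Line by line, EIC 2 was the lowest EIC line in 6 of 6 ATF4 targets and in 2 of 15 chaperones, against 38.8% of all tested genes. It was the highest EIC line in 9 of 15 chaperones and in 0 of 6 ATF4 targets (39.6% of tested genes). The line 16IC 2 was the highest 16IC line in 6 of 6 ATF4 targets and in 2 of 15 chaperones (29.5% of tested genes). By contrast 16IC 3 was the highest 16IC line in 12 of 15 chaperones and in 0 of 6 ATF4 targets (44.3% of tested genes). In 16IC 1, 14 of 15 chaperones were below all 3 EIC lines (31.4% of tested genes). In 16IC 2 all 15 were (30.6%), and 11 were in 16IC 3 (34.3%). The same held for 3, 0 and 4 of the 6 ATF4 targets.

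A balance was formed per line as the level of the 22 tested chaperone, ERAD and translocon genes minus that of the 6 ATF4 targets. It was -0.78, 1.02 and -0.80 in the EIC lines and 0.21, -1.09 and 0.94 in the 16IC lines. By this difference EIC 2, 16IC 3 and, less so, 16IC 1 leaned to the chaperone side. EIC 1, EIC 3 and 16IC 2 leaned to the ATF4 side, and each group held lines of both kinds. The 22 genes alone were at 0.48, 0.46 and 0.21 in the EIC lines and at -0.41, -0.45 and -0.23 in the 16IC lines. The side of a line is thus relative to its ATF4 targets, whose levels ranged more widely. The group means of the balance were -0.18 ± 1.05 in EIC and 0.02 ± 1.02 in 16IC (SD, n = 3). Their difference of 0.21 is small beside either SD. It ran from -0.18 without 16IC 3 to 0.84 without EIC 2. The members are not replicates of a line, and no test was made of the balance.

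**Figure D4:**
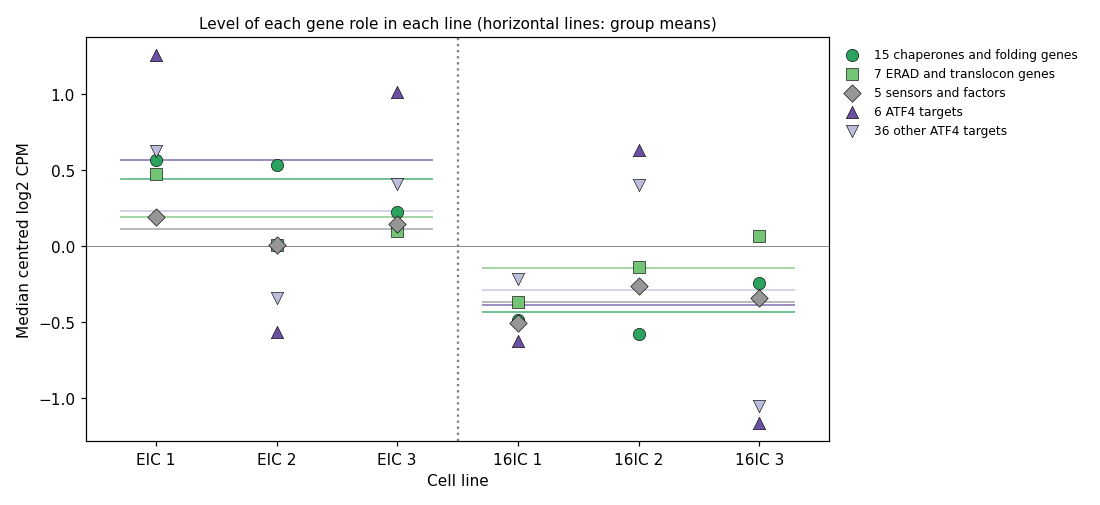
Level of each role in each line, as the median over its genes of log2 CPM centred per gene, with horizontal lines at the group means. The chaperones (circles) are at 0.22 or above in EIC and at -0.24 or below in 16IC, while both sets of ATF4 targets (triangles) are below 0 in EIC 2, 16IC 1 and 16IC 3 and above 0 in EIC 1, EIC 3 and 16IC 2.

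Other genes of the pathway were read by role from lists of their own. Of 30 tested other folding genes 26 had a negative log2 fold change (median -0.57). EdgeR and limma-voom called 0 of them (2.45% and 2.1% of tested genes). DESeq2 called 5, all lower (12.4% of its genes called in either direction). In edgeR 14 were lower at an unadjusted p under 0.05, where 10.1% of tested genes were lower and 22.7% had such a p in either direction. Dnajc3, a J protein that inhibits PERK, had 210, 311 and 181 CPM in EIC and 68.9, 80.2 and 108 CPM in 16IC (log2 fold change -1.45, edgeR's adjusted p = 0.0592). Ero1l, the oxidase that supplies disulfides, had a log2 fold change of -1.62 (edgeR's adjusted p = 0.0740), and the isomerase gene P4hb one of -1.28 (edgeR's adjusted p = 0.0932). Both had their groups apart. DESeq2 called Dnajc3, Ero1l and P4hb.

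Of 27 tested other ERAD and translocon genes 21 were negative (median -0.44) and 13 were lower at an unadjusted p under 0.05 in edgeR (10.1% of tested genes). DESeq2 called 12 as lower (12.4% of its genes called in either direction). EdgeR and limma-voom called 1 (2.45% and 2.1% of tested genes). In edgeR it was Serp1, a small protein of the translocon, which had 572, 427 and 473 CPM in EIC and 168, 195 and 216 CPM in 16IC. Serp1 fell by 1.35 (SE 0.20, edgeR's adjusted p = 0.0391), a call that was gone (adjusted p = 0.145 to 0.176) when EIC 1, EIC 3, 16IC 1 or 16IC 2 was left out. Subunits of the translocon-associated complex and of the signal peptidase had values in that direction without a call in edgeR, while DESeq2 called the 3 named here. Ssr4 had a log2 fold change of -0.92, Ssr2 one of -1.08 and Spcs1 one of -0.87 (edgeR's adjusted p = 0.0590, 0.0761 and 0.0666), all with groups apart. Of 20 tested other sensors and regulators edgeR, limma-voom and DESeq2 called 0 (2.45%, 2.1% and 12.4% of their genes). The median log2 fold change was -0.02. An unadjusted p under 0.05 was found in edgeR for 1 higher gene, Eif2ak4, and 1 lower gene, Eif2ak2, both eIF2 kinases. Eif2ak4 had 27.7, 17.4 and 25 CPM in EIC and 47.3, 54.5 and 28.7 CPM in 16IC (log2 fold change 0.90, edgeR's adjusted p = 0.164). Its groups were apart, with EIC 2 the lowest line and 16IC 2 the highest.

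Of 36 tested other ATF4 targets 30 were negative (median -0.48). EdgeR and limma-voom called 0 of them (2.45% and 2.1% of tested genes) and DESeq2 3 (12.4% of its genes called). In edgeR 6 were lower at an unadjusted p under 0.05 (10.1% of tested genes). In 5 of the 36 all 16IC lines lay below all EIC lines (14.2% of tested genes). EIC 2 was the lowest EIC line in 33 of the 36 (38.8% of tested genes), and 16IC 2 was the highest 16IC line in 34 of the 36 (29.5% of tested genes). Their level was 0.62, -0.34 and 0.41 in the EIC lines and -0.21, 0.40 and -1.05 in the 16IC lines, the same signs by line as in the 6 members. Slc7a11, the cystine importer, had 252, 37.8 and 193 CPM in EIC and 5.30, 17.6 and 6.81 CPM in 16IC, apart by group with EIC 2 lowest in EIC (log2 fold change -4.02, SE 0.85, edgeR's adjusted p = 0.0666). Psat1, an enzyme of serine synthesis, had 438, 299 and 456 CPM against 179, 267 and 98.9 CPM (log2 fold change -1.13, edgeR's adjusted p = 0.160).

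A list of heat shock genes was read beside these. Most encode chaperones of the cytosol, which heat shock factor controls and not the ER sensors. The list also held genes of mitochondrial chaperones and the gene of a heat shock factor. Of 16 tested, 13 were negative (50.3% of tested genes) with a median of -0.07. At an unadjusted p under 0.05 in edgeR, 6 were lower (10.1% of tested genes). DESeq2 called 5 as lower (12.4% of its genes called in either direction). EdgeR called 2 as lower (1.2% of tested genes), Hspa1a and Hspa1b. Hspa1b had 232, 178 and 273 CPM in EIC and 46.6, 57.7 and 66.1 CPM in 16IC and fell by 2.0 (SE 0.24, edgeR's adjusted p = 0.0360). Hspa1a fell by 2.15 (SE 0.32, edgeR's adjusted p = 0.0390). The 2 genes are near-identical copies, so how reads were divided between them is uncertain. Leaving out EIC 1, EIC 3, 16IC 1 or 16IC 2 ended both calls (adjusted p = 0.139 to 0.171 in edgeR).

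How many members were called depended on the tool and on single lines. DESeq2 called 13 of 34, all lower, where it called 12.4% of the genes it adjusted. These were 9 chaperones (Hspa5, Hsp90b1, Pdia4, Pdia6, Creld2, Hyou1, Sdf2l1, Manf and Hspa13) with Edem1, Sec61b, Xbp1 and Ppp1r15a. Limma-voom called Creld2 and Hspa13, with 2.1% of genes called. Without 16IC 3 edgeR called 8 of 33, all chaperones and all lower (13.4% of genes), and without EIC 2 it called Edem1 alone (1.96% of genes). Without EIC 1, EIC 3, 16IC 1 or 16IC 2 it called 0 of 33, with 12 to 15 at an unadjusted p under 0.05, and at most 5 genes of all it tested. In the authors' deposited table, which has 8.63% of its genes at an adjusted p under 0.05, the log2 fold change is -1.18 for Hspa5 (adjusted p = 0.000484), -1.31 for Xbp1 (0.0498) and -0.65 for Atf4 (0.506). The DESeq2 fit made here gave nearly the same values, -1.18 (DESeq2's adjusted p = 0.000485), -1.31 (0.0497) and -0.65 (0.505). The deposited values are therefore not a separate result beside DESeq2.

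The groups of 17 tested members did not overlap, 16 lower and 1 higher in 16IC. Of tested genes, 31.4% had groups apart in either direction and 14.2% were lower in this way. The 11 chaperones among the 16 were Hspa5, Hsp90b1, Pdia4, Pdia6, Canx, Creld2, Hyou1, Sdf2l1, Manf, Dnajb11 and Hspa13. Of the genes with an ERSE in the printed stretches, Hspa5, Hsp90b1, Pdia6, Creld2 and Canx were among them. Calr and Syvn1 were not, and Derl3 was not tested. Pdia4, Sdf2l1 and Dnajb11 were among them without an ERSE match, and so were Hyou1, Manf and Hspa13, which had no matched window. A link of the element to these levels was not tested. Of the 34 genes, 12 overlap another gene of the table in the genome. For 5 of these, Manf, Syvn1, Derl2, Ddit3 and Atf5, a partner had more than 10% of the member's level. The values of these 5 are less certain. Rbm15b, on the same strand as Manf, had 68.4% of the level of Manf, and Mars had 348% of that of Ddit3. The other partners over 10% lie on the opposite strand, and no source used here says whether counting used strand.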

How the data were processed

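RNA of 6 cell lines was sequenced from NEBNext Ultra II libraries. Per the submitters' processing notes, Trimmomatic, STAR, HTSeq, edgeR and limma were used on GRCm38 or mm10, and no source used here gives their roles, the annotation or the strand setting. The authors deposited whole-number counts per gene and library, and these were analysed. The deposited table also holds the authors' normalised signal (each count divided by 1 factor per library) and FPKM, both unused here. Its log2 fold change and adjusted p-value are the authors' comparison, and values from it are named as such. For the members they nearly equal those of the DESeq2 fit made here, although the notes do not name DESeq2.

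Of 23449 genes, 13698 passed edgeR's filterByExpr (minimum count 10). Libraries were scaled with TMM, and the difference of 16IC from EIC was tested in edgeR 4.0.16 under R 4.3.3 (quasi-likelihood test). P-values were adjusted by Benjamini-Hochberg over all tested genes, with a threshold of 0.05. The SE is the fitted log2 fold change divided by the root of the test's F. Log2 CPM used a prior count of 0.5. Limma 3.58.1 (voom) and DESeq2 1.42.0 were alternatives, with other scalings, filters and left-out lines. The tests were tested on simulated data.

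Members, roles and lists were chosen with earlier results of these data known, so counts by list carry no test of their own. All 34 members could be named, and from each other list up to 4 genes with the smallest p. Protein features were planned and are not analysed here. Promoter windows are from RefSeq (GRCm38.p6), and 33 of 34 members have the same coordinates in the table and in a GRCm38 annotation.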

Additional observations from a re-analysis of the deposited data

How the results depend on the processing

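The 2 member calls (Creld2 and Hspa13) kept their number with DESeq2 size factors, upper-quartile factors, a filter of 1 CPM in 3 libraries, robust dispersion and limma-voom. The count was 1 with no filter on low counts, where Hspa13 had an adjusted p of 0.0507, and 13 with DESeq2, and it ran from 0 to 8 over the fits without 1 line. Over the other lists, heat shock genes included, 3 genes were called, with 25 in DESeq2 and 0 to 17 without 1 line. Of the 3 and the 25, 2 and 5 were from the list of heat shock genes. With 16IC 1 and 16IC 2 averaged, an alternative chosen after seeing the data, edgeR called 0 members (13 at an unadjusted p under 0.05) and 0 other genes. Upper-quartile factors moved the median of all genes from -0.00 to 0.05. The median log2 fold change stayed negative for each role: -0.98 to -0.82 for chaperones, -0.62 to -0.20 for ERAD and translocon genes, -1.01 to -0.54 for sensors and factors and -1.52 to -0.63 for ATF4 targets over the fits without 1 line. Of uncalled members, 5 changed sign without 1 line: Calr without EIC 2 (0.11) or 16IC 2 (0.13), with a range of -0.51 to 0.13, Sel1l without 16IC 1 (-0.27 to 0.023), Herpud1 without 16IC 1 (-0.77 to 0.14), Eif2ak3 without 16IC 2 (-0.040 to 0.30) and Atf5 without 16IC 3 (-0.80 to 0.12). With the averaged lines Calr had 0.064 and Herpud1 0.050. The cause was not tested. The group difference in balance was 0.08 with chaperones alone and -0.18 to 0.84 without 1 line. No paired analysis was possible because the labels give the lines no shared number. Counting error limits Derl3 alone among the members, with at most 12 counts in a library.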
